A study of Mus musculus with 35 samples.

Results

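The mouse genome carries many copies of the gene for 5S ribosomal RNA (5S rRNA), and 180 of the 37310 genes in the GENCODE vM1 annotation of mm9 have a symbol of that family, starting n-R5s. The 43 copies described here are those with at least 1 cDNA listed on their own strand in the summed file of any of 8 proteins, SRSF1 to SRSF7 and NXF1. Selection therefore used the measured values, and the other 137 copies had none in those files. Individual-nucleotide cross-linking and immunoprecipitation (iCLIP) joins protein to RNA with ultraviolet light in living cells and reads the joined base from the place where reverse transcription stops. Each deposited value is a number of cDNAs at a single base, here called tags, and only bases whose local density passed the authors' false discovery threshold are listed. SR proteins are splicing factors, and the study describes most of them, SRSF2 excepted, as moving between nucleus and cytoplasm. NXF1 is the receptor that takes mRNA through the nuclear pore, and the study asked how the SR family takes part in mRNA export.

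The cells were P19, a mouse embryonal carcinoma line with features of the early embryo. Each line carried 1 GFP-tagged protein on a mouse bacterial artificial chromosome, so that the tagged protein was made from its own gene region beside the untagged protein. Lines were selected with Geneticin and by cell sorting and were clonal, so a protein cannot be told apart from the clone that carried it. SRSF1 and SRSF5 had 4 libraries each, SRSF2 had 5, SRSF7 had 6, and SRSF3, SRSF4, SRSF6 and NXF1 had 3 each. GFP with a nuclear localization signal (GFP-NLS) was the background control, and its libraries are held in 1 pooled file that enters no test. Libraries held between 13038 and 4459523 listed tags, and the pooled control held 21880. The study calls its iCLIP replicates biological, but the sources used here do not say whether they came from separate cultures, so the p-values speak of the spread among these samples alone, and that spread may be technical. The headers inside SRSF2 replicates 2 and 5 name SRSF1. Both stayed with SRSF2, as labelled, and SRSF2 is also given without the pair.

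5S rRNA is the small RNA of the large ribosomal subunit. RNA polymerase III makes it, with the zinc finger factor TFIIIA (Gtf3a in mouse) bound inside the gene, and the La protein (Ssb) holds the end of the new transcript. The RNA then joins the ribosomal proteins Rpl5 and Rpl11 in the 5S ribonucleoprotein, which enters the growing large subunit with the help of Rrs1 and Rpf2. True 5S genes stand in tandem arrays, while many further copies scattered through mammalian genomes are pseudogenes. A cDNA from the RNA may match several of them.

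The most frequent 5S sequence in the annotation had 119 bases and was shared by 25 copies, all between chr8:126062686-126145946 on the minus strand in mm9, within introns of Gm20388 on the opposite strand. None of these 25 copies had a tag in any library or in the control.

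The copies are near-identical and the tables cannot show which copy a cDNA came from, so the level of a single copy is uncertain and the summed family is the firmer quantity. Among all 180 copies 149 sequences were distinct, and the 43 copies with tags had 43 distinct sequences. Their identity to the most frequent sequence ran from 73.1% to 99.2% with a median of 89.9%, and 27 of the 43 had the full length. None of the 31 libraries had a tag on the antisense strand of these copies, and none had a tag on any of the other 137.

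Over the 31 libraries the family held 23141 tags, spread very unevenly. A copy had 42 tags at the median and 7415 at most, 16 copies had 100 or more, and 12 had under 10, of which 5 had tags only in the summed files. At the edge of the selection the lowest member had 4 tags in the summed files and the copies outside had none. The most abundant copy was n-R5s2 (chrX:5684009-5684127, plus strand, intergenic), with 32.0% of the tags. Next were n-R5s194 (chr3:4338998-4339116, plus strand, intergenic) with 3266 tags, n-R5s115 (chr8:126088186-126088304, minus strand) with 3085 and n-R5s136 (chr8:126123761-126123879, minus strand) with 2013. They were followed by n-R5s109 (chr8:126077960-126078078, minus strand) with 1062, n-R5s71 (chr11:74133294-74133412, plus strand, intergenic) with 1058 and the shortened copy n-R5s156 (chr7:106646228-106646332, plus strand, intergenic) with 1010. The other 3 of the leading 10 were n-R5s33 in an intron of Lrch3 (chr16:33001989-33002107, plus strand) with 979, n-R5s211 (chr1:46431042-46431160, plus strand, intergenic) with 707 and n-R5s185 in an exon of Tmem38b (chr4:53873524-53873642, plus strand) with 536. Both host genes lie on the same strand as their 5S copy, so those tags could also belong to host transcripts. Of the 43 copies 25 were intergenic, 17 lay in introns and 1 in an exon.

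Tags were concentrated on copies that were close to the most frequent sequence without matching it (plot of tags against identity). Copies from 95% to under 100% identical held 80.8% of the tags, on 8 of the 20 such copies. Copies from 90% to under 95% held 12.3%, and all 13 of them had tags. The 80% to 90% class held 6.14% on 13 of 26 copies, and copies under 80% held 0.743% on 9 of 96. The 25 copies of the most frequent sequence held 0. Inside the chromosome 8 span stood 41 copies, and the 4 of them with tags, n-R5s115, n-R5s136, n-R5s109 and n-R5s127, held 6184 tags. They differ from the most frequent sequence by 2, 1, 3 and 8 bases. The other 12 copies of the span were also at least 95% identical and had no tag, and only 1 of them had a sequence found in no other copy. All tags of the array lay on copies whose sequence is their own.

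**Figure D1:**
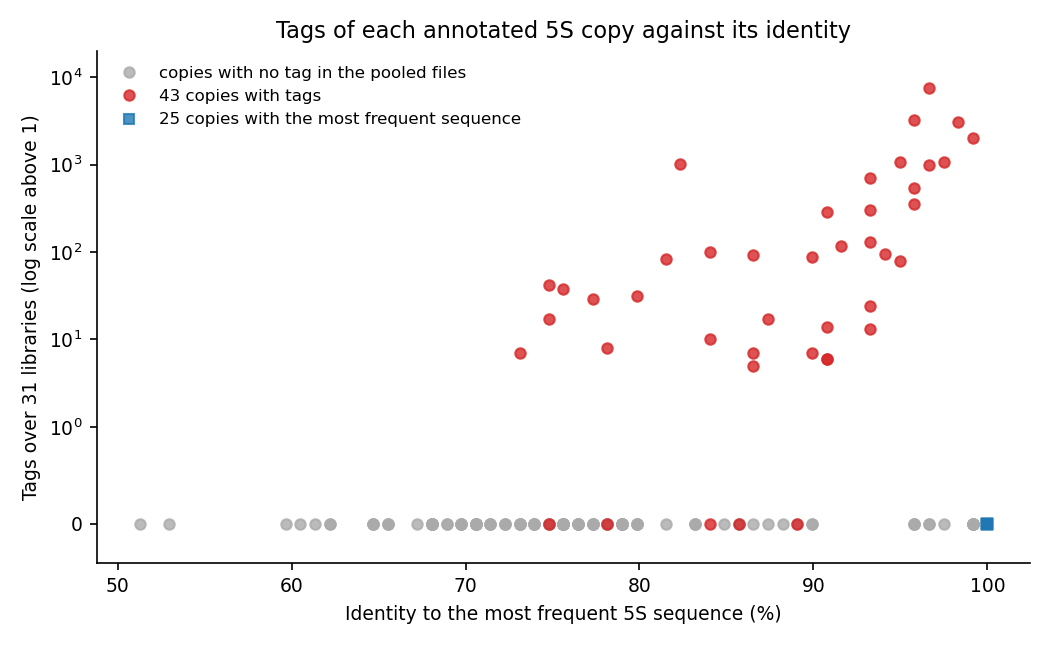
Each point is 1 of the 180 annotated 5S copies; the x axis gives identity to the most frequent sequence in percent and the y axis tags summed over 31 libraries on a scale that is logarithmic above 1. The 25 copies at 100% identity sit at 0 tags, while the highest point, n-R5s2 with 7415 tags, lies at 96.6%.

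How often a stretch of a copy occurs in the genome moved with this pattern for the 25 identical copies. It did not do so at every length for the other copies. In the 25 identical copies, no stretch of 20, 30 or 50 bases occurred only once in mm9, and the rarest had 46, 41 and 19 places. Among the 112 others, 73.2%, 85.3% and 88.6% of positions were followed by a 20-, 30- or 50-base stretch with a single place. In the 43 copies with tags, 51.3%, 77.6% and 92.3% of positions were. The 112 copies without tags thus had the larger share at 20 and 30 bases and the smaller share at 50. Of the tags on the 43 copies, 17.0% were followed by a 20-base stretch with a single place, 45.2% by such a 30-base stretch and 81.2% by such a 50-base stretch. Each was below the share of positions. Stretches near a 3′ end run on into the genome beyond the copy. The aligner and its treatment of reads with several places are not given in the sources used here, and their part in the pattern was not tested. A copy without tags is therefore no evidence of a silent gene, and a copy with tags no evidence of an active one. A run of 4 T, the stop signal of RNA polymerase III, stood within 20 bases after the 3′ end in 12 of the 43 copies (27.9%), in 25 of the 25 identical copies, in 21 of the 112 others (18.75%) and in 17.7% of all other annotated genes. The match describes these windows only.

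Summed over the family, NXF1 libraries held 8758, 6804 and 11931 CPM (replicates 1 to 3), that is tags scaled to a common total of listed tags. The 28 SR protein libraries ranged from 41.6 to 20939 CPM with a median of 1151. By level, the NXF1 libraries stood above 26 of the 28, and the exceptions were SRSF7 replicates 1 and 5, the libraries labelled SRSF7 with the fewest tags (13038 and 16556 listed in all). The pooled GFP-NLS control held 15219 CPM (333 of 21880 tags, 1.52%, exact 95% interval 1.36% to 1.69%, counting error only), above every library but those 2. The sum has no test, because its members were chosen on tags.

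SRSF1 libraries held 690, 763, 1369 and 1946 CPM in order of replicate. SRSF2 libraries held 4601, 1179, 1381, 1013 and 958 CPM, and without replicates 2 and 5 the group spanned 1013 to 4601. SRSF3 libraries held 330, 59.5 and 41.6 CPM, and all 3 lay below each SRSF1, SRSF2, SRSF4, SRSF5 and SRSF6 library. SRSF4 libraries held 4639, 631 and 2240 CPM. SRSF5 libraries held 4272, 2000, 4761 and 4103 CPM, a group whose lowest member stood above all SRSF1, SRSF3 and SRSF6 libraries. SRSF6 libraries were close together at 1056, 693 and 935 CPM. SRSF7 libraries were the most spread, at 20939, 4077, 1123, 185, 16489 and 258 CPM, a range that covers every other group's median except that of SRSF3. Ordered by median, SRSF3 (59.5), SRSF6 (935), SRSF1 (1066), SRSF2 (1179), SRSF4 (2240), SRSF7 (2600), SRSF5 (4187) and NXF1 (8758) followed each other. Neighbours in that order overlapped in range, except SRSF3 with SRSF6 and, owing to the gap between 4761 and 6804, SRSF5 with NXF1. The second gap closed when tags were scaled on coding-gene totals, where SRSF5 ran from 6529 to 29054 and NXF1 from 28726 to 60767.

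**Figure D2:**
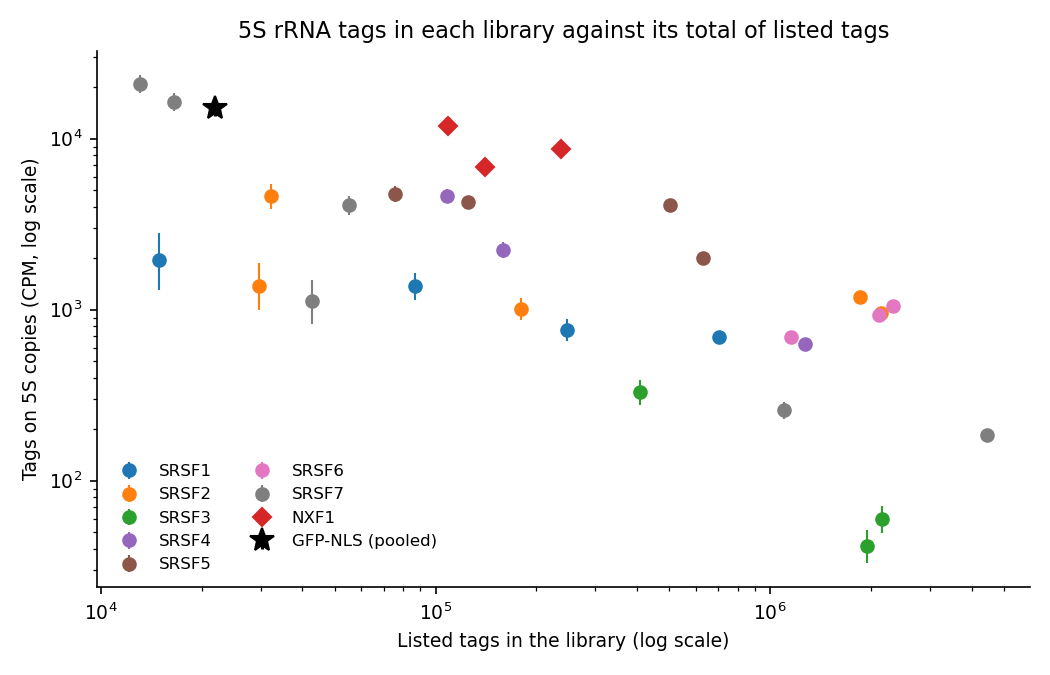
Each point is 1 library, or the pooled GFP-NLS file as a star; the x axis gives its listed tags and the y axis the CPM on 5S copies, both on log scales, with exact 95% counting intervals as bars. The highest library points, SRSF7 replicates 1 and 5 at 20939 and 16489 CPM, have few listed tags, while other small libraries reach down to 1123 CPM. The NXF1 diamonds, from 6804 to 11931 CPM, stand above the SR protein points of like size.

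The family level was lower in median in the largest SR libraries, as the plot of 5S level against library total shows. SR libraries under 50000 tags held 1123 to 20939 CPM (median 3274, n = 6). Those of 50000 to 250000 tags held 763 to 4761 (median 3159, n = 8) and those over 250000 tags 41.6 to 4103 (median 691, n = 14). All 3 NXF1 libraries fell in the middle class, where every one of them exceeded the 8 SR libraries on listed totals. On coding-gene totals SRSF5 replicate 1, of the same class, stood at 29054, above NXF1 replicate 1 at 28726. All NXF1 libraries also carry the run year 2014, as do 13 SR libraries. Within that year and the middle class, 4 SR libraries held 763 to 4639 CPM. The control file, with few tags, lies among the small libraries in level. The part of library total and of background in the order was not tested.

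Among all symbols, the summed 5S copies ranked 2 in the control file behind U5, 6 in the NXF1 file, 16 in the SRSF5 file, between 58 and 118 in those of SRSF1, SRSF2, SRSF4, SRSF6 and SRSF7, and 2647 in that of SRSF3. The SRSF7 file leaves out most tags of its libraries, as described with the leading copies. Other RNA polymerase III transcripts were ordered differently. 7SK, the RNA that holds the elongation factor P-TEFb, had a median of 5970 CPM in NXF1, 14497 in SR and 12706 in the control file. U6, the spliceosomal RNA, had 1472, 3530 and 5073. Y RNA, a partner of the Ro60 protein, had 12211, 5531 and 5393. The 5.8S rRNA of the large subunit had 9374, 964 and 17276, and the mitochondrial rRNAs mt-Rnr1 and mt-Rnr2 had 3183, 787 and 1280 and 14424, 3698 and 5165. In median, 5S rRNA, 5.8S rRNA, the mitochondrial rRNAs and Y RNA were higher in NXF1 than in SR, and 7SK and U6 were lower. These ranges overlapped between NXF1 and SR libraries for each of the named RNAs.

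The copies were next compared one by one, NXF1 set against the average of 7 SR proteins, in a limma voom fit over 6027 genes. In that fit 18 of the 43 copies passed the filter on low values, and 11 were higher in NXF1 and 0 lower at an adjusted p under 0.05, and 0 lower when p was not adjusted or limma-trend was used. Over all genes tested, 2.90% were higher and 2.46% lower. The median log2 difference of the 18 was 3.82, against -1.86 for all genes, so a typical gene lay lower in NXF1. Each of the 18 had a positive fitted value, but for n-R5s77 (0.68, adjusted p = 0.765, limma) this sign is no measure of direction, since that copy was listed at 0 in all 3 NXF1 libraries and had a mean of 10.5 CPM in SR. n-R5s156 also had a lower mean CPM in NXF1 (344) than in SR (445). Of the 18, 14 passed the filter on SR libraries alone and 7 of those were higher, while the other 4, n-R5s28, n-R5s205, n-R5s64 and n-R5s90, passed only through NXF1 and had to differ. The count of 11 and the median of 3.82 include these 4, so 7 of 14 is the firmer count. The copies share libraries and may share cDNAs, so they are not independent of each other.

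Among the leading copies n-R5s2 had 3672, 2173 and 2622 CPM in NXF1, and 0, 323 and 1954 as the lowest, median and highest of 28 SR libraries. Every NXF1 library was above every SR library, with a log2 difference of 3.63 ± 0.76 (SE, adjusted p = 0.00337, limma). That call was lost without NXF1 replicate 1 (3.41, adjusted p = 0.0780, limma; range over the libraries left out 0.000904 to 0.0780). n-R5s64 (chr12:87059427-87059545, minus strand) had 101, 57.0 and 101 CPM against 0 to 12.7 in SR, but it passed the filter through NXF1 alone, so this gap is only a description. In contrast, n-R5s211 had 804, 499 and 1113 CPM in NXF1 and 0, 21.3 and 1329 in SR. Its difference was the largest of the leading 10, at 5.71 ± 1.15 (SE, adjusted p = 0.00224, limma), and SRSF7 replicate 5 alone, at 1329 CPM, stood above the NXF1 range. n-R5s185 had 379, 299 and 248 CPM in NXF1 and 0, 11.2 and 537 in SR (4.83 ± 0.90, adjusted p = 0.000965, limma). The pooled GFP-NLS file held 1234 CPM on n-R5s2 (27 tags), 320 on n-R5s211 (7 tags) and 0 on n-R5s185, each below every NXF1 library.

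n-R5s194 had 653, 976 and 1674 CPM in NXF1 and 0, 106 and 2454 in SR (3.51 ± 0.99, adjusted p = 0.0343, limma). n-R5s136 had 678, 734 and 1398 CPM in NXF1 and 0, 97.3 and 3503 in SR (4.01 ± 1.17, adjusted p = 0.0384, limma). Both calls were lost without NXF1 replicate 1, 2 or 3, and that of n-R5s136 also without SRSF3 replicate 2 or 3 or SRSF4 replicate 2, with adjusted p up to 0.211 and 0.212 (limma). In the pooled GFP-NLS file n-R5s194 had 1051 CPM, within the NXF1 range. There n-R5s136 had 2148 CPM, above every NXF1 library. For n-R5s115, n-R5s33, n-R5s109 and n-R5s156 the log2 differences were 3.14, 2.81, 2.75 and 2.65, with adjusted p = 0.0860, 0.103, 0.108 and 0.136 (limma). Without NXF1 replicate 2 or 3 the difference of n-R5s33 was 4.98 or 1.33 and that of n-R5s109 was 4.79 or 1.38. n-R5s156 was even in NXF1, at 337, 363 and 331 CPM, and ran from 0 to 5216 in SR. n-R5s71 had 160, 0 and 175 CPM in NXF1 and 0, 37.3 and 1150 in SR (0.59, adjusted p = 0.594, limma). Outside the leading 10, n-R5s28, n-R5s205, n-R5s210, n-R5s64, n-R5s151 and n-R5s90 were also higher, by 4.61 to 6.17, and are named after their values were seen. Of these, n-R5s210 and n-R5s151 alone passed the filter on SR libraries, so the direction of the other 4 was set by the filter.

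**Figure D3:**
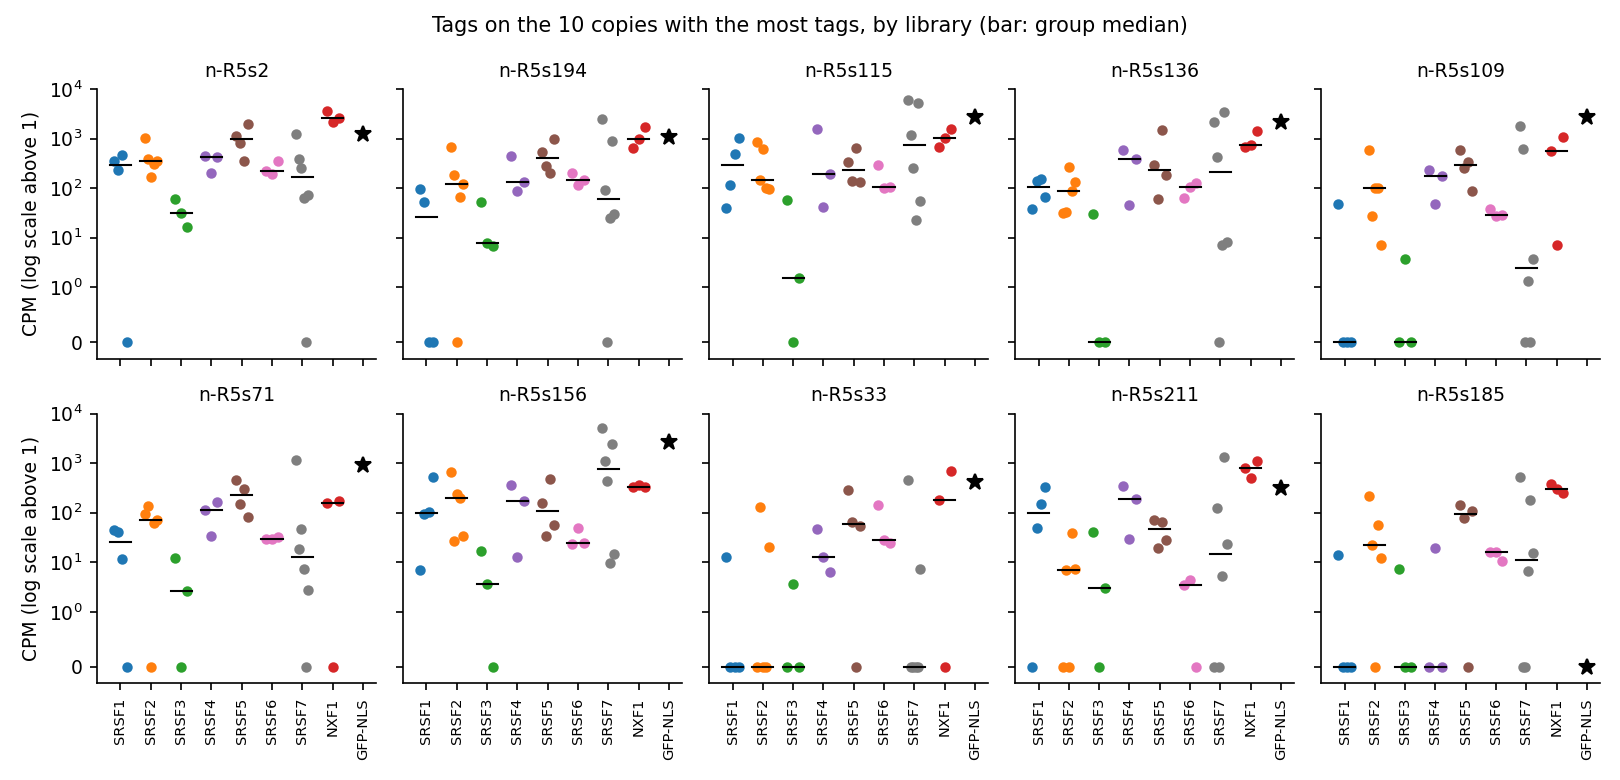
Each panel is 1 of the 10 copies with the most tags; points are libraries in CPM on a scale that is logarithmic above 1, bars are group medians and the star is the pooled GFP-NLS file. For n-R5s2 the 3 NXF1 points, from 2173 to 3672 CPM, lie above all SR points, while for n-R5s115 and n-R5s156 the highest points, 5983 and 5216 CPM, belong to SRSF7.

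The count of 11 fell to 6, 7 and 7 without NXF1 replicate 1, 2 or 3, and to 5 when log2(CPM + 1) values were fitted with limma-trend. Restricted to libraries of 50000 to 250000 tags it was 10 of 17, and without SRSF7 replicates 1 and 5 it was 11, both alternatives chosen after seeing the data. Scaling on coding-gene totals or by a trimmed mean moved the median of all genes to -0.82 and -0.87 and left 14 and 10 copies higher. All these counts may include copies that passed the filter only through NXF1, and none is given without such copies. The shares of all genes called in these settings are not given either. The counts therefore do not tell how 5S copies fared against other genes.

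Among the SR proteins, each was compared with the mean of the other 6 in the same fit, so these comparisons share libraries. In SRSF3, 9 of 18 tested copies were lower and 0 higher (0 higher also when p was not adjusted), where 2.29% of all genes were lower and 8.56% higher, and their median log2 difference was -3.26 against 0.80 for all genes. n-R5s2 had 61.1, 31.6 and 16.4 CPM in SRSF3 and 0 to 1954 in the other 25 libraries, a difference of -3.24 ± 0.79 (SE, adjusted p = 0.00704, limma). n-R5s115 had 56.2, 0 and 1.54 CPM against 23.1 to 5983, and n-R5s136 had 29.3, 0 and 0. Together with n-R5s71, n-R5s156, n-R5s185, n-R5s109, n-R5s211 and n-R5s194 they fell in this comparison. The count was 6, 3 and 4 without SRSF3 replicate 1, 2 or 3, and limma-trend gave 0. Shares of all genes called in those fits are not given. SRSF3 libraries were among the larger ones, at 409282 to 2152709 listed tags.

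SRSF5 showed the opposite direction. Here 6 copies were higher and 0 lower (0 lower also when p was not adjusted), where 1.66% of all genes were higher and 20.5% lower, and the median was 2.10 against -1.28 for all genes. n-R5s2 had 1138, 812, 356 and 1954 CPM in SRSF5 and 0 to 1227 in the other 24 libraries (2.37 ± 0.69, adjusted p = 0.0166, limma). n-R5s71 had 457, 150, 303 and 83.7 CPM (3.22 ± 0.87, adjusted p = 0.0122, limma). n-R5s5, n-R5s109, n-R5s185 and n-R5s194 rose as well, by 4.03, 3.74, 2.57 and 2.60. Without SRSF5 replicates 1, 2 or 4 the count was 2, 1 and 4, and limma-trend gave 0. For these fits too, the shares of all genes called are not given.

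Few copies differed in the other proteins. SRSF4 had 2 higher copies, n-R5s151 and n-R5s210, and 0 lower, where 0.382% of all genes were higher and 0.0332% lower, and 0 without its replicate 1 or 3. n-R5s151 had 83.2, 51.3 and 276 CPM there and 114, 299 and 156 CPM in NXF1. SRSF6 had 1 lower copy, n-R5s211, and 0 higher, where 0.680% of all genes were lower and 4.20% higher, and leaving out any of its 3 libraries, or SRSF1 replicate 3, SRSF4 replicate 1 or 3, or SRSF5 replicate 1, gave 0, while leaving out SRSF2 replicate 2 gave 2. In SRSF1, SRSF2 and SRSF7 limma voom and limma-trend called 0 copies in either direction. When p was not adjusted these counts were 0, 2 and 2 copies of 18, all higher, where 3.92%, 4.89% and 16.0% of all genes were higher by that rule, and without SRSF7 replicate 4 or 6 the SRSF7 count was 1. At an adjusted p, the background in the higher direction was 1.14%, 0.166% and 2.52% of all genes, and in the lower direction 1.43%, 0.299% and 0.465%.

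Which copies held the tags differed between files. n-R5s2 led in the summed files of SRSF1 to SRSF6 and NXF1, with 21.3% to 37.5% of their 5S tags. In the SRSF7 file n-R5s115 led with 22.5%, followed by n-R5s156 with 15.3%. That file holds 1449645 listed tags, fewer than the 4459523 of SRSF7 replicate 4 alone, although its header names a sum of all 6 libraries. Added over the 6 SRSF7 libraries, n-R5s2 had 408 tags and n-R5s115 had 406, so the leading copy of SRSF7 depends on the file. In the control n-R5s115 led with 18.0%, and n-R5s109 and n-R5s156 had 17.7% each. The control had tags on 11 copies, all among the 43, and the NXF1 file on 34.

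Positions within the RNA were read after aligning every copy to the most frequent sequence, counting from 1 at its 5′ end. Of the tags, 5.02% lay at positions 1 to 30, 11.1% at positions 31 and 32, 83.7% at positions 33 to 98 and 0.173% at positions 99 to 119. The last stretch was therefore nearly empty, and a cDNA that starts there has few bases of the RNA left to place it. In the 43 copies, 58.3% of its positions start a 20-base stretch with a single place, against 43.7% at positions 33 to 98. Nearly all of these stretches in positions 99 to 119 run past the RNA into neighbouring genomic bases. The 58.3% therefore does not tell how well a 5S cDNA from there could be placed. Position 31 was the highest, with 7.10% of the tags on 9 copies and in 30 of the 31 libraries. Positions 85, 53 and 63 followed, with 5.41%, 4.81% and 4.56%. At each of these 3 a single copy led, n-R5s115 with 82.1% of the tags at 85, n-R5s194 with 84.9% at 53 and n-R5s33 with 74.7% at 63. Position 44 was shared more widely, over 15 copies and 29 libraries.

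The control was concentrated on few bases, with 22.5% of its tags at position 31, 13.2% at 44 and 10.2% at 10. By segment (5′, positions 1 to 40; middle, 41 to 80; 3′, 81 to 119) it had 49.2%, 44.7% and 6.01%. NXF1 libraries had 20.5%, 36.1% and 18.0% in the 5′ segment, 51.0%, 49.8% and 49.0% in the middle segment and 28.6%, 14.0% and 33.0% in the 3′ segment. SR libraries ran from 5.12% to 75.9% in the 5′ segment. SRSF7 had the highest median there, 57.1% (29.2% to 75.5%, n = 6), and SRSF5 the lowest, 11.7% (8.55% to 54.6%, n = 4). SR libraries over 250000 listed tags held 5.12% to 35.6% in that segment. Those under 50000 held 54.2% to 75.9%, except SRSF2 replicate 1 with 14.2%. SRSF7 replicates 1, 3 and 5 were among these small libraries. The part of library total in these shares was not tested. NXF1 and SR ranges overlapped in all 3 segments, and libraries of 1 protein differed widely.

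**Figure D4:**
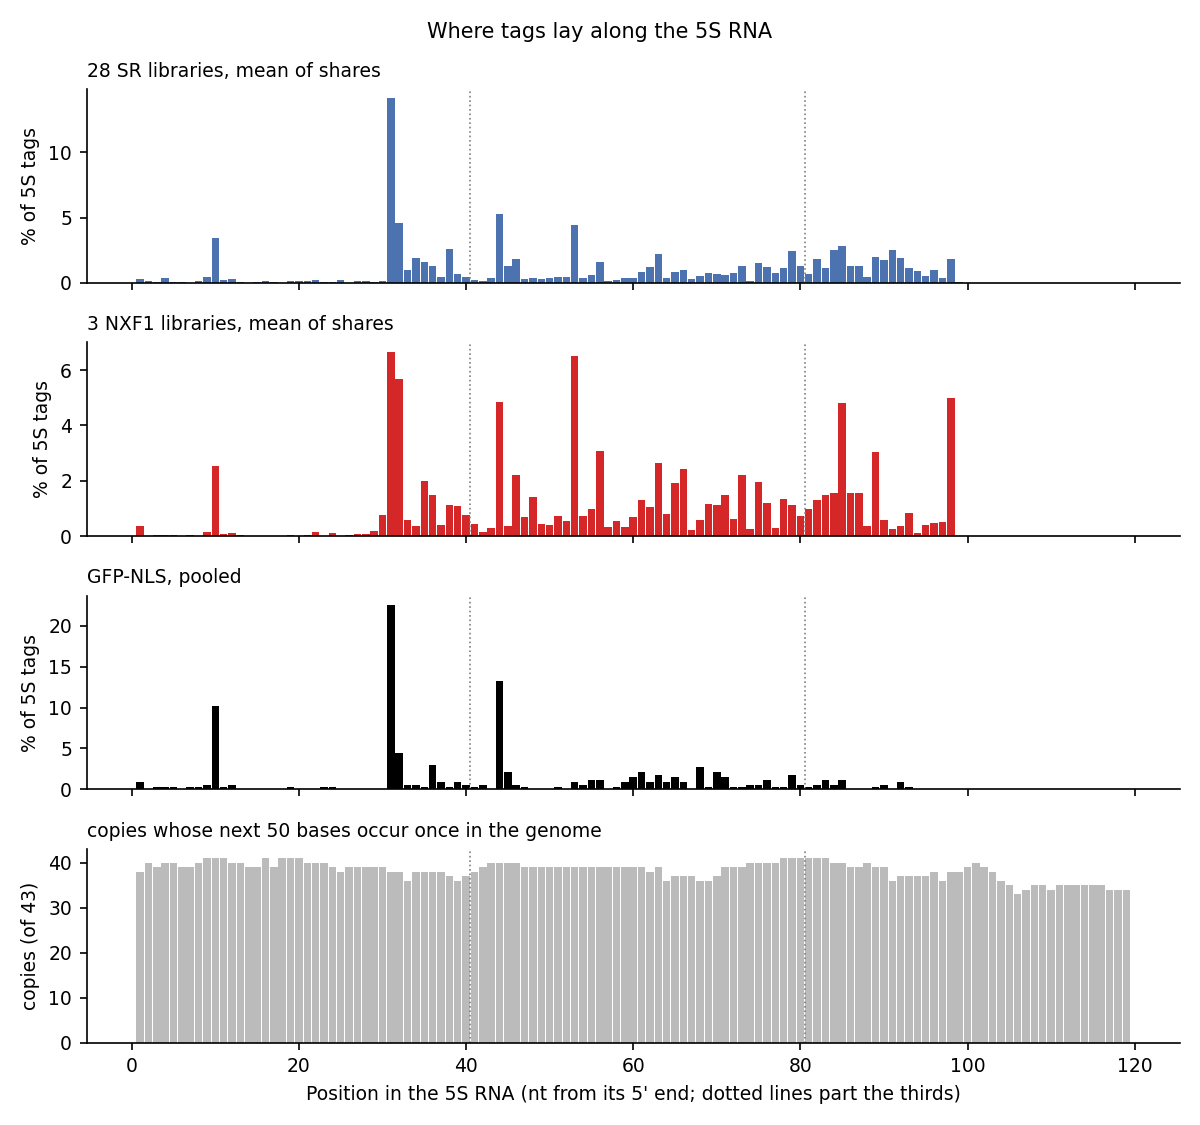
The upper 3 panels give the percent of 5S tags at each position for SR libraries, NXF1 libraries and the pooled control, the first 2 as means of the libraries' shares, and the lowest gives how many of 43 copies have a next 50-base stretch found once in mm9. Toward the 3′ end these stretches run on into genomic bases beyond the copy. Position 31 stands highest in the control at 22.5%, and no panel with tags shows more than traces after position 98.

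In 6 of the leading 10 copies, a large share of the tags lay at 1 position directly before a base by which the copy differs from the most frequent sequence. This description was chosen after the values were seen. Positions directly 5′ of a substitution were 8.71% of all positions and held 21.1% of the tags. Per site they held 13.4 tags, against 0.17 to 2.92 at 2 to 10 bases before a substitution and 1.02 to 5.48 from the substitution to 10 bases after it. This mean rests on 6 sites with over 500 tags each, which held 4341 of the 4880 tags, while the other 359 sites held 539 tags among them. In n-R5s33, 80.6% of the tags lay at position 63, directly before a substitution at position 64. In n-R5s109, 50.1% lay at position 98, before one at position 99, where copies without that substitution had 0.492% of theirs. In n-R5s71, 48.7% lay at 91, before one at 92, in n-R5s136 35.8% at 32, before one at 33, and in n-R5s115 33.4% at 85, before one at 86. n-R5s194 had 23.1% at 46, before one at 47. The other 4 of the leading 10 did not have this pattern. Positions directly before a substitution held 2.63% of the tags of n-R5s2, 4.24% of n-R5s211, 1.12% of n-R5s185 and 0% of n-R5s156, and the highest position of n-R5s2, 89, held 6.08% and lay after its last substitution.

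**Figure D5:**
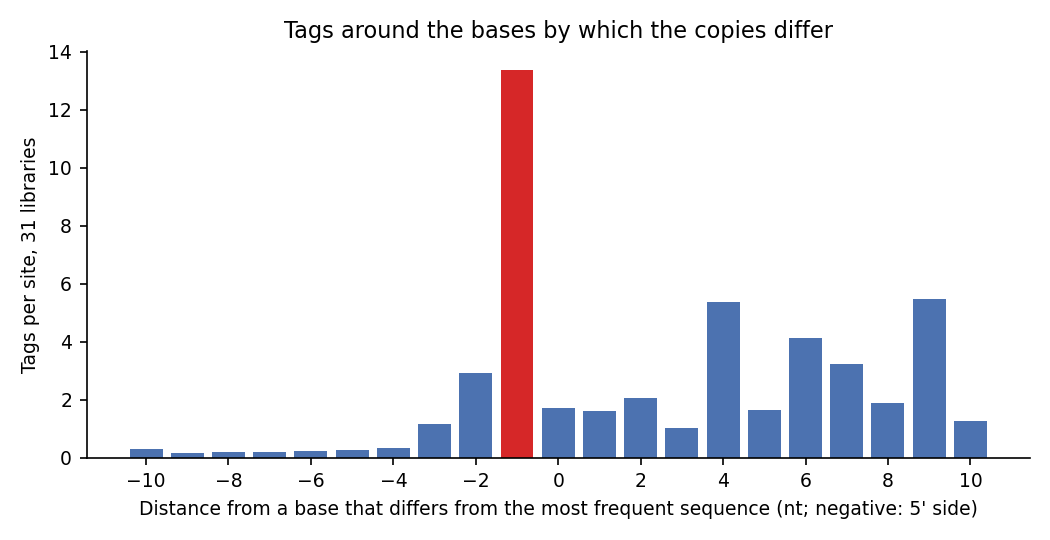
Bars give the tags per site in 31 libraries at each distance, in nt, from a base by which a copy differs from the most frequent sequence, with negative distances on the 5′ side. The bar at -1 reaches 13.4 tags per site, mostly from 6 sites, and no other passes 5.48.

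The share directly before a substitution was 20.8% in the summed NXF1 file and 1.20% in the control. It was 13.3%, 11.9% and 37.2% in the NXF1 libraries. Among SR libraries it rose in median with the library total, from 0% under 50000 tags to 6.88% between 50000 and 250000 and 16.1% above, and the highest were SRSF6 replicate 1 with 50.3% and SRSF2 replicate 2 with 42.1%. SRSF7 libraries had 0% to 7.05%. NXF1 replicate 3 stood above all SR libraries of its size class, which reached 25.1%. How reads were placed among copies, and its part in these peaks, was not tested.

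Base composition at the tags was close to that of the RNA with less A. G made up 37.1% of the tags and 32.8% of the RNA, C 26.1% and 27.7%, T 25.8% and 21.0%, and A 11.0% and 18.5%. In NXF1 G reached 46.0%, and in the control it was 39.9%, also above its share of the RNA. In the lowest-energy fold of the most frequent sequence, 34.5% of the bases were unpaired and they held 39.7% of the tags. Neither comparison has a test, since positions share copies and reads.

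The genes that make and bind 5S rRNA were taken from lists chosen with earlier results of these data known. For the 5S ribonucleoprotein and its assembly, 6 of 8 annotated genes were tested. In NXF1 limma called 0 higher and 0 lower, and limma-trend also 0. When p was not adjusted, 1 was higher and 2 were lower, where 5.39% of all genes were higher and 33.1% lower. The median log2 difference was -1.78, close to -1.86 for all genes. Rpl5, which carries 5S rRNA into the ribosome, had 509 to 754 CPM in NXF1 and 0 to 797 in SR (2.01 ± 0.67, adjusted p = 0.0641, limma). Its partner Rpl11 had 0 to 21.4 CPM in NXF1 and 0 to 181 in SR (-2.13 ± 0.79, adjusted p = 0.0833, limma). Neither difference passed the test. Gtf3a, the 5S transcription factor, was listed at 0 in all NXF1 libraries, reached 24.0 CPM elsewhere and was too low to test. These are tags on mRNA and pre-mRNA of the genes, not protein levels.

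In the RNA polymerase III machinery, 15 of 24 genes were tested and limma called 0 in NXF1, where 7 were lower when p was not adjusted (33.1% of all genes were) and 0 with limma-trend, and the median was -2.56. In SRSF5, 6 of them were lower, where 20.5% of all genes were lower. Among other RNA polymerase III transcripts 56 genes were tested, and 2 were higher and 0 lower in NXF1, with a median of 0.14, where 2.90% of all genes were higher, so the count is near the background. One is a 5S copy under another symbol, 5S_rRNA on chromosome 17, with a median of 101 CPM and a highest of 249 in NXF1 and 0 to 785 in SR (5.68 ± 0.97, adjusted p = 0.000487, limma). The other is a U6 copy on chromosome 2 (2.98 ± 0.86, adjusted p = 0.0378, limma). In SRSF5 11 of the 56 were higher, where 1.66% of all genes were, and in SRSF3 and SRSF6 4 each were lower, where 2.29% and 0.680% of all genes were lower. Of 4 other rRNA genes limma called 0 in NXF1, although all 4 were higher when p was not adjusted, as were 5.39% of all genes (limma-trend also gave 0). Their median was 2.16, and 2 were higher in SRSF1, where 1.14% of all genes were.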

How the data were processed

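iCLIP was analysed in 31 libraries of GFP-tagged SRSF1 to SRSF7 and NXF1 from P19 cells and in 1 pooled GFP-NLS file. Per the file headers, each deposited score is the count of cDNAs at 1 base with its sign as strand, and the authors kept only bases that passed a false discovery rate of 0.05 by permutation on mm9, library by library and again for the summed libraries of a protein. The SRSF7 file, named as such a sum, holds 1449645 tags against 5689665 in its 6 libraries, for a reason that was not found. A file total is therefore a total of listed tags, not a sequencing depth, and 0 means that nothing was listed. CASAVA 1.4 stands in the submitters' processing notes, and the aligner and its treatment of repeated sequences are not given in the sources used here.

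Tags on the gene's strand were summed over GENCODE vM1 genes (Python 3.11.15, pandas 2.3.3). limma 3.58.1 (voom, R 4.3.3) fitted the 31 libraries in 1 model, with listed totals as the scale and no block. The 6027 genes tested had 15 tags or more over the libraries and reached 42.1 CPM, or 10 tags in the median library of 237488, in 3 or more of them. Adjusted p-values are Benjamini-Hochberg values over all genes tested, called under 0.05. Libraries without tags enter log2 differences through a small offset, so these are no fold bounds for copies with zeros. On simulated data the NXF1 comparison found 92% of the genes raised 8-fold and 58% of those lowered as much, 44% of the genes raised 4-fold and 24% of those lowered as much, and 5 of its 114 calls were false. In the same order the SRSF5 comparison found 96%, 82%, 72% and 48%, and 11 of its 160 calls were false. The simulated counts were negative binomial with a dispersion of 0.3 and had no listing threshold. These rates describe that setting and are not the power or error rate of the fit to the real libraries.

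Copies were aligned to the most frequent 5S sequence (Biopython 1.88). That sequence alone was folded with RNAfold 2.7.2, and each copy took its paired or unpaired bases from this fold by alignment. Stretches of 20, 30 and 50 bases were searched on both strands of mm9. Stretches near a 3′ end included genomic bases beyond the copy. Groups came from sample titles. Named copies were the 10 with the most tags among those tested, the leading copy of each summed file, list genes that passed the test in NXF1, and Rpl5, Rpl11 and Gtf3a. The members and lists were chosen with earlier results of these data known. Alternatives changed the scaling, filter, tool, block, libraries, gene window and copies. Of 49 pairs of same-group libraries none held the counts of another. Intervals are exact and cover counting error only. The sequences of the copies are not reported here.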

Additional observations from a re-analysis of the deposited data

Results flagged for a closer look

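Of 56 sets of 4 to 10 libraries of 1 protein that were examined, 19 had a highest library set far apart from the rest by Dixon's ratio. For normally distributed values chance alone gives about 1 in 20, but these sets hold zeros and wide spreads. The count of flags is therefore not measured against that rate. The sets share libraries and copies, so the flags are not independent. For the summed family, SRSF2 replicate 1 stood apart with 4601 CPM, and for positions SRSF5 replicate 3 stood apart with 54.6% of its tags in the 5′ segment (positions 1 to 40). In SRSF2 the highest libraries also stood apart for n-R5s2 (1026 CPM), n-R5s194 (684), n-R5s109 (591), n-R5s33 (129), n-R5s211 (39.0) and n-R5s185 (218). In SRSF7 they stood apart for n-R5s2 (1227 CPM), n-R5s194 (2454), n-R5s109 (1764), n-R5s71 (1150), n-R5s33 (460), n-R5s211 (1329) and n-R5s185 (537). SRSF7 replicate 5 held the value of n-R5s211 and SRSF7 replicate 1 the other 6, and these are the libraries of 16556 and 13038 listed tags. In SRSF1, n-R5s109 (48.3 CPM), n-R5s33 (12.8) and n-R5s185 (14.2) had tags in 1 library each. In SRSF5 n-R5s136 reached 1504 CPM in replicate 3. The causes were not tested.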

How the results depend on the processing

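Copies higher in NXF1 numbered 11, and 7 of 38 tested with no filter, 5 with limma-trend, and 6 to 11 when a library was left out. For the changed settings here and below, the shares of all genes called are not given. These counts therefore do not tell how 5S copies fared against other genes. With no filter, limma-trend and libraries left out in turn, copies higher in SRSF5 (6) numbered 1, 0 and 1 to 7, and copies higher in SRSF4 (2) numbered 0, 0 and 0 to 2. Copies lower in SRSF3 (9) numbered 0 with limma-trend and 3 to 11 with libraries left out. The single copy lower in SRSF6 was lost (0) with coding-gene totals, no filter, limma-trend and only libraries of at least 50000 tags, was joined by another (2) without SRSF2 replicates 2 and 5, and the count was 0 to 2 with libraries left out. Copies higher in SRSF7 (0) numbered 0 to 1 with libraries left out. Replicate numbers share no origin in the labels, and of 91 same-numbered pairs 14 had a correlation of deviations over 0.1, with a median of -0.0041. With the replicate number as a block, 11 copies were higher in NXF1, 1 in SRSF4 and 1 in SRSF7. Only libraries of 50000 to 250000 tags, chosen after seeing the data, gave 1 copy lower in SRSF1 and 1 higher in SRSF5. The n-R5s71 difference (0.59) turned to -0.54 and -0.12 without NXF1 replicate 1 or 3 (2.49 without replicate 2) and to -0.62 in that size class. With coding-gene totals the median 5S level was 3372 in SRSF1, 4982 in SRSF4, 17836 in SRSF5, 1234 in SRSF6 and 30223 in NXF1, in CPM on coding-gene tags. With only copies at least 95% identical, the middle segment (positions 41 to 80) held 30.4% in SRSF4, 46.6% in SRSF7 and 47.7% in NXF1. The causes were not tested. Limits are the listing threshold, which acts library by library, the small totals of some libraries, the single control file and the shared sequence of the copies.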
